A study of Rattus norvegicus with 18 samples.

Results

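At day 30, RNA levels in the rat motor cortex were compared between In and S within each sex. The comparison described here is the difference between these In minus S effects: the female effect minus the male effect. It uses 12 libraries of the 18 in the series, chosen as all those labelled day 30. They form 4 groups of 3: female In, female S, male In and male S, the male S libraries being numbered 1, 2 and 4. The series title concerns spinal cord injury, but the labels do not spell out In and S, so the names are kept as given, and no strain or age is stated. The design text describes neurons enriched from the tissue, while markers of glia, blood vessels and myelin were present in every library, so the libraries are read here as mixed tissue RNA. In such bulk samples fewer cells of a type and less RNA per cell cannot be told apart.

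The motor cortex sends corticospinal axons to the spinal cord. Injury of the cord cuts or damages these axons at a distance from their cell bodies, and both neurons and the surrounding microglia, astrocytes and vessels of the cortex can respond. A difference between sexes in such a response is an interaction: a gene can differ between females and males at any time, but only a gene whose In minus S change differs contributes to it. Throughout, a difference above 0 means that In minus S was higher in females than in males, which can come from more in female In, less in male In, or both.

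The 12 libraries held 14532252 to 27849794 counts. The sexes differed in makeup: mitochondrially encoded genes took 27.1 to 37.5% of the counts in females and 53.7 to 60.3% in males, so sex and library preparation cannot be told apart in any direct comparison of females with males. Y-linked genes had 617 to 1634 counts in the male libraries and 1 to 17 in the female ones, as the labels say. Male In 1 stood apart from the rest: its log expression correlated at 0.896 to 0.945 with the other libraries, Mbp, a main myelin protein, took 0.551% of its counts against at least 2.12% elsewhere, and the haemoglobin gene Hba1 reached 304 CPM (library-scaled counts with TMM factors) against at most 93.5 CPM elsewhere. Most list medians are given below with and without it, as are some named genes. Tead2, Gpr84, Pik3cg and Sparc, each highest among the male libraries in male In 1, are given only with it. In male S 4, 40.6% of the reads were not uniquely aligned. No source says that the replicates are separate animals, so p-values measure only the spread between these libraries.

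No gene's effect differed between the sexes at an adjusted p under 0.05 (edgeR's quasi-likelihood F test over 15074 genes with Benjamini-Hochberg adjustment; 0% called, smallest adjusted p = 0.940). At an unadjusted p under 0.05 there were 619 genes, 4.11% of those tested, of which 278 lay above 0 (1.84%) and 341 below 0 (2.26%). Differences centred on a median of -0.01 on the log2 scale, with quartiles of -0.31 and 0.28, and 48.9% of genes lay above 0. The effects themselves showed almost no relation between the sexes: across all tested genes, Pearson's r was 0.0152 and Spearman's rho -0.0282, given as a description, since genes are not independent and share the libraries of each sex. The precision was limited. The median standard error of a difference was 0.377 log2 units (quartiles 0.272 and 0.626), so a gene with that error has a 95% interval reaching 0.80 to either side. In data simulated at this depth and spread, the same test found 12% of 2-fold, 42% of 4-fold and 84% of 8-fold differences. It also made 10 false calls among genes left unchanged. The changed genes held none with a fitted mean near 0 counts in any library. These shares thus do not cover genes with a group at 0 counts.

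**Figure D1:**
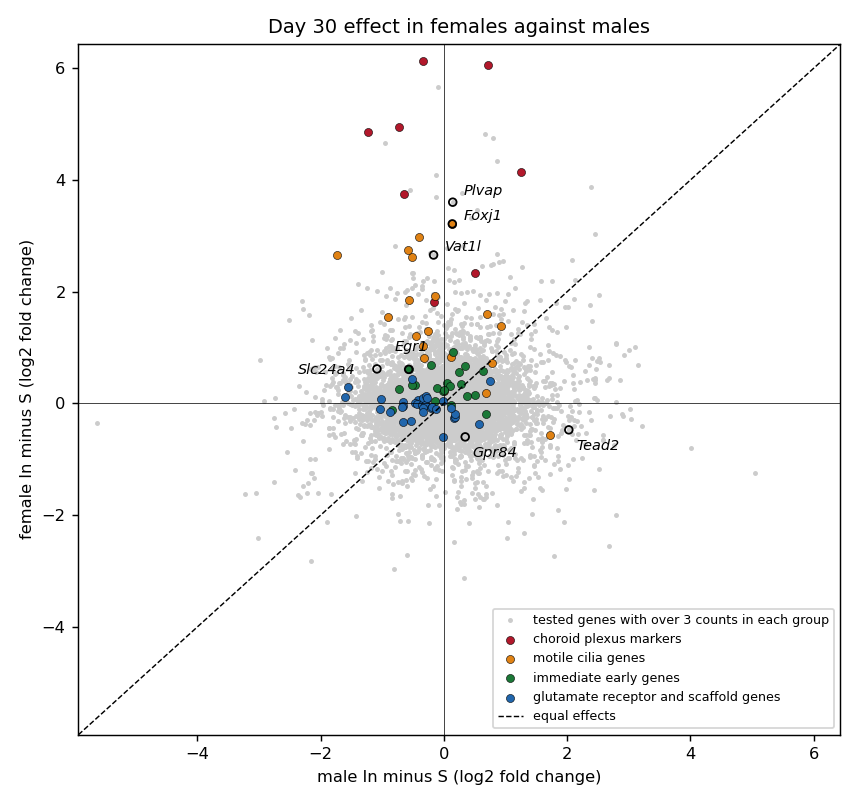
Log2 fold change of In over S in females (vertical axis) against males (horizontal axis) for each tested gene with over 3 counts in each of the 4 groups; the dashed line marks equal effects. Choroid plexus markers (red) and most motile cilia genes (orange) lie high on the female axis and scatter to either side of 0 on the male axis. The cloud of genes shows little slope (Pearson's r 0.0152 over all tested genes).

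Within the sexes, 5 genes passed in females (0.0332% of those tested), all higher in In, and 0 in males, where 1232 genes had an unadjusted p under 0.05 (8.17%) against 261 in females (1.73%). A pass in one sex alone does not make a difference between sexes, and for none of the 5 did the difference pass. The female count was 0 when female In 2, female In 3, any female S library, male S 1 or male S 2 was left out, 1 without male S 4, 10 without male In 1 and 24 without female In 1. Foxj1, a transcription factor that drives the formation of motile cilia, was at 4.01, 5.03 and 8.33 CPM in female In, against 0.426, 0.832 and 0.599 CPM in female S. In males it was at 1.81, 1.44 and 2.45 CPM in In, against 2.60, 1.73 and 0.667 CPM in S. The female groups do not overlap and the male groups do, giving a log2 difference of effects of 3.08 ± 0.69 (SE; adjusted p = 0.940 by edgeR). Plvap, a protein of the diaphragms in fenestrated capillaries such as those of the choroid plexus, had 3.26, 17.0 and 9.17 CPM in female In and 0.766, 0.915 and 0.727 CPM in female S. Its male values were 2.47, 1.08 and 0.818 CPM in In and 1.02, 1.83 and 1.14 CPM in S, and the log2 difference was 3.46 ± 0.79 (SE; adjusted p = 0.940 by edgeR). Plvap was highest in female In 2, and it is a member of the endothelial list, not of the choroid plexus list.

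The remaining genes that passed in females are markers of the choroid plexus, the epithelium that makes cerebrospinal fluid. Each of them entered the test only because it was high in female In, since its counts elsewhere were under the filter on low counts. Folr1, a folate receptor that carries folate across this epithelium, had 60, 262 and 789 counts in female In and 1, 0 and 2 in female S. In males it had 4, 0 and 1 counts in In and 6, 1 and 0 in S. Tmem72, a membrane protein, had 21, 110 and 398 counts in female In, 0, 1 and 0 in female S, 0, 3 and 1 in male In and 3, 0 and 0 in male S. Slco1a5, an organic anion transporter, had 26, 140 and 425 counts in female In, 1, 0 and 2 in female S, 0 in each male In library and 3, 0 and 1 in male S. Each gene followed the same order among the female In libraries, lowest in In 1 and highest in In 3, and the other 9 libraries held 6 counts or fewer. No fold is given for these genes because a group held 3 counts or fewer.

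Of 17 choroid plexus markers listed with counts, 13 were tested, but 8 of these passed the filter on low counts only because they were high in female In, so their position above 0 was set by the filter. Over the 13 the median log2 difference was 5.34, with median effects of 6.05 in females and -0.06 in males. It ran from 3.58 (without male S 2) to 6.14 (without female S 3) with 1 library left out. The 5 members that passed without the help of female In were Kl, Calml4, Aqp1, Enpp2 and Igfbp2. Their median log2 difference was 2.90, against -0.01 over all genes, with median effects of 3.74 in females and -0.15 in males. Kl, the anti-ageing protein klotho, had 6.11, 20.8 and 64.5 CPM in female In and 0.638, 1.46 and 1.03 CPM in female S. In males it was at 0, 0.577 and 0.636 CPM in In and 0.0853, 2.11 and 1.24 CPM in S. Prlr, the prolactin receptor, passed the filter only through female In. It had 2.30, 5.74 and 17.2 CPM in female In, and no other library exceeded 0.428 CPM. Enpp2, the enzyme autotaxin, which is also made by oligodendrocytes, was at 128, 227 and 524 CPM in female In and 105, 75.7 and 70.1 CPM in female S, a smaller log2 difference of 1.96 ± 0.69 (SE). Igfbp2, a carrier of insulin-like growth factors, had 1.83 ± 0.74, and Aqp1, a water channel, 2.90 ± 1.15, or 4.53 without male In 1. The summed level of all 17, which no filter touched, ran from 195 to 1020 CPM in female In, 91.7 to 118 in female S, 89.0 to 103 in male In and 76.4 to 104 in male S. The female In libraries stood above the range of the other 9, and they spread several fold among themselves. The part that tissue of the choroid plexus in single samples has in this result was not tested.

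Of the 21 tested motile cilia and ependymal genes, 7 passed the filter only through female In. Over all 21 the median log2 difference was 1.66, and over the other 14 it was 1.46, with median effects of 1.34 in females and -0.20 in males. With 1 library left out, the median over the 21 ran from 1.20 (without female In 3) to 1.91 (without male In 1). The summed level of all 25 listed was 37.2 to 66.4 CPM in female In, 16.2 to 22.8 in female S, 22.1 to 32.6 in male In and 22.7 to 33.6 in male S. The female groups do not overlap, while the male ones do. Fam183b, a ciliary protein, had 24, 32 and 40 counts in female In and 0, 4 and 1 in female S, but 0 in all 3 male In libraries and 11, 3 and 3 in male S. It had the smallest p of all genes tested (adjusted p = 0.940 by edgeR), but is among the members that passed the filter only through female In. Cfap52 and Cfap126, proteins of the ciliary axoneme, had log2 differences of 1.66 ± 0.75 and 1.15 ± 0.44 (SE). Choroid plexus cells also carry cilia, and the sums of both lists were highest in female In 3 and, among female In, lowest in In 1.

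**Figure D2:**
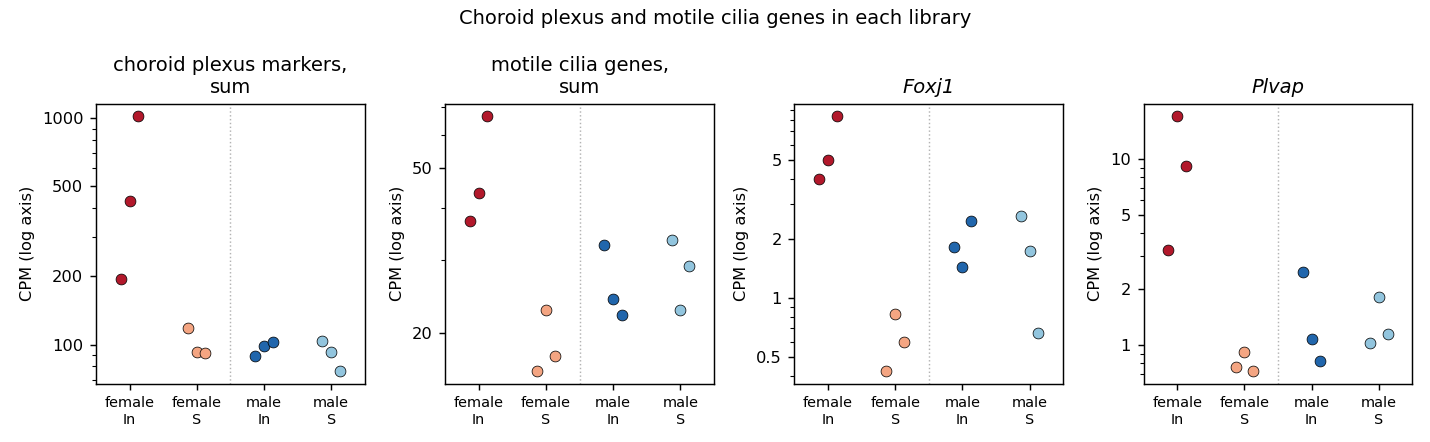
CPM (log axis) in each library for the summed choroid plexus markers, the summed motile cilia genes, Foxj1 and Plvap; each point is 1 library, numbered left to right within a group. In all 4 panels the female In libraries lie above the female S libraries, whereas male In and male S overlap, and female In 3 has the highest choroid plexus sum (1020 CPM).

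Among the 12 genes with the smallest p above 0, female In lay fully above female S for 10 (4.21% of all genes), male In fully below male S for 4 (5.17%), and both held for 2. The genes were picked by a p that such separation lowers, so these counts describe them only. Beside the ciliary and choroid plexus genes, this set held Calml4, a calmodulin-like protein on the choroid plexus list, with a log2 difference of 4.38 ± 1.16 (SE), and genes outside both lists. Vat1l, known as a marker of layer 5 projection neurons, was at 14.5, 30.5 and 83.4 CPM in female In, against 5.70, 8.78 and 5.90 CPM in female S. Male In had 9.41, 8.15 and 7.91 CPM and male S 7.98, 11.8 and 8.95 CPM. The order of the female In libraries is that of the choroid plexus markers, and the log2 difference of 2.82 ± 0.70 (SE) was 1.90 without female In 3. The part of those markers in this value was not tested. Wipf3, an actin regulator, was at 18.5, 28.2 and 43.2 CPM in female In, in that same order, and at 11.8, 14.1 and 9.97 CPM in female S. Slc17a8, the vesicular glutamate transporter VGLUT3, had 13, 44 and 49 counts in female In, 0, 1 and 3 in female S, 0 in each male In library and 0, 12 and 2 in male S. This gene, too, passed the filter on low counts only because it was high in female In.

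In other genes of this set the male libraries contributed more. Slc24a4, a sodium, potassium and calcium exchanger, was at 10.1, 15.4 and 20.4 CPM in female In and 7.45, 14.6 and 7.91 CPM in female S, which overlap. In males it was at 5.04, 4.90 and 5.27 CPM in In, against 10.2, 10.1 and 12.1 CPM in S. The male groups lie well apart with little spread, and the male log2 effect was -1.09 ± 0.30 (SE). Sik1, a kinase induced by neuronal activity and cAMP, was at 9.27, 6.34 and 5.11 CPM in female In and 4.85, 6.28 and 3.94 CPM in female S. In males it was at 2.76, 2.02 and 2.09 CPM in In and 4.44, 4.90 and 5.81 CPM in S, and the log2 difference was 1.59 ± 0.43 (SE). Hmox2, a constitutive haem oxygenase, differed less but in both sexes: 37.3, 42.0 and 35.7 CPM in female In against 30.4, 32.4 and 29.3 CPM in female S, and 24.3, 27.7 and 33.1 CPM in male In against 36.2, 40.4 and 41.3 CPM in male S. Its log2 difference was 0.79 ± 0.21 (SE, 95% interval 0.34 to 1.24; adjusted p = 0.940 by edgeR).

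Below 0, the 12 genes with the smallest p had male In fully above male S for 10 (6.30% of all genes), female In fully below female S for 4 (3.81%), and both for 3, with the same limit. Tead2, through which YAP and TAZ of the Hippo pathway act on DNA, was at 1.55, 2.02 and 1.78 CPM in female In, against 2.04, 2.62 and 2.78 CPM in female S. In males it was at 5.32, 2.88 and 3.09 CPM in In and 0.853, 0.865 and 1.05 CPM in S. The log2 difference was -2.50 ± 0.56 (SE), of which the male effect of 2.03 makes up most. Gpr84, a receptor for medium-chain fatty acids found on activated microglia, was at 17.6, 15.7 and 14.8 CPM in female In and 24.6, 21.6 and 26.7 CPM in female S. Male In had 27.3, 18.1 and 20.1 CPM and male S 16.8, 17.2 and 17.4 CPM, a log2 difference of -0.94 ± 0.25 (SE). Sst, the peptide somatostatin of one class of inhibitory neurons, was at 15.5, 18.6 and 18.1 CPM in female In and 19.3, 22.3 and 24.6 CPM in female S. In males it was at 21.9, 20.5 and 30.3 CPM in In, against 18.5, 11.5 and 16.2 CPM in S, and the log2 difference was -0.98 ± 0.29 (SE).

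Most of the rest of this set had their separation in males. Ifitm2, an interferon-induced membrane protein, was at 16.4, 12.5 and 13.3 CPM in female In and 17.7, 15.1 and 15.0 CPM in female S, but at 25.7, 21.3 and 22.2 CPM in male In and 16.5, 9.61 and 10.4 CPM in male S. Pik3cg, a phosphoinositide 3-kinase subunit of immune cells, had a log2 effect of -0.42 ± 0.23 in females and 0.74 ± 0.25 in males (SE). Sema4b, a semaphorin, had -0.34 ± 0.27 and 1.02 ± 0.29, and Lyrm5, a mitochondrial protein, -0.60 ± 0.27 and 0.81 ± 0.28. Map7d3, a microtubule-associated protein, had 4, 18 and 18 counts in female In, 27, 39 and 40 in female S, 12, 1 and 13 in male In and 3, 0 and 0 in male S. The other members were loci without a named product, among them LOC103691929, with a log2 difference of -1.70 ± 0.41 (SE).

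Over all tested genes, 21 (0.139%) had each female In library above each female S library and each male In library below each male S library, and 23 (0.153%) had the reverse. By position of the libraries alone, Fam183b, Hmox2, Egr1 and Usp18 belong to the first set, and Tead2, Gpr84 and Sst to the second. Usp18, a brake on interferon signalling, was at 7.11, 8.52 and 9.58 CPM in female In, 4.51, 6.57 and 1.58 CPM in female S, 3.14, 4.25 and 6.09 CPM in male In and 8.66, 8.36 and 6.67 CPM in male S. Its log2 difference was 1.81 ± 0.55 (SE; adjusted p = 0.940 by edgeR).

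**Figure D3:**
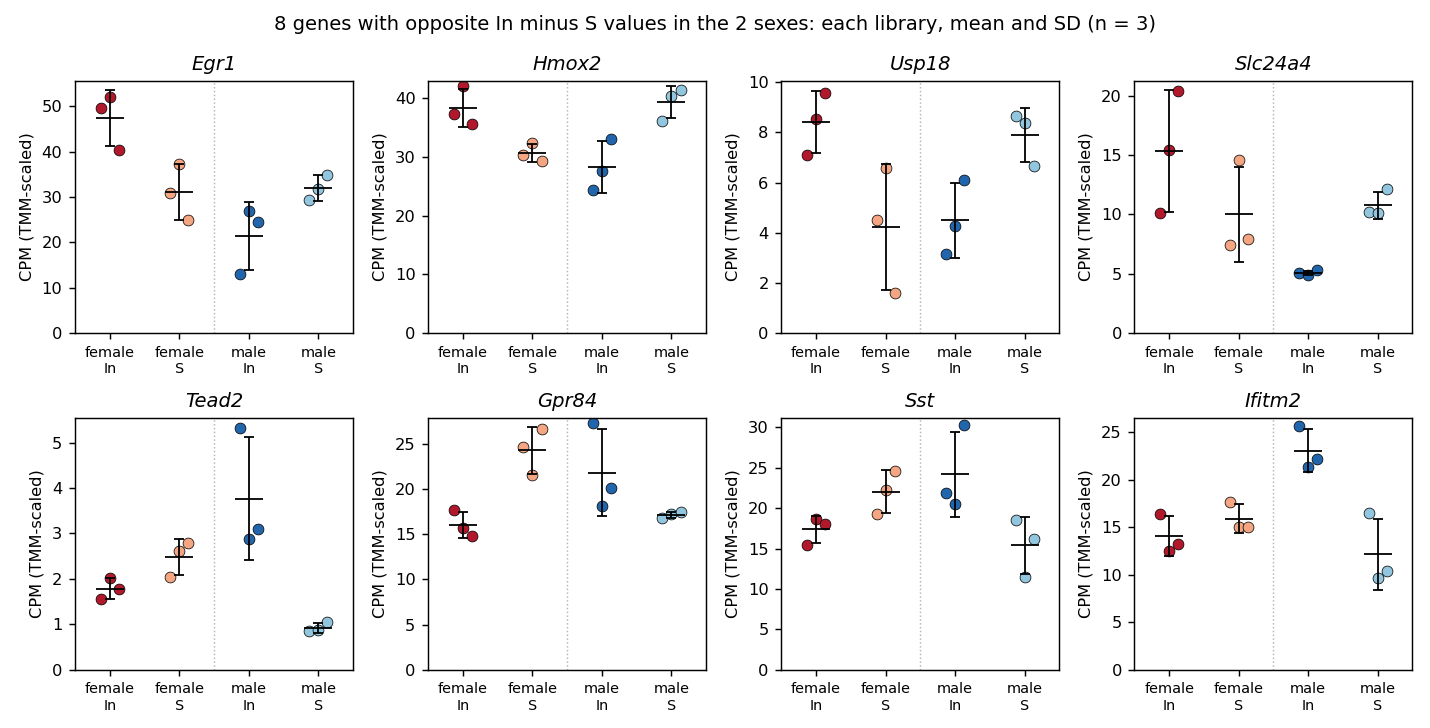
TMM-scaled CPM in each library, with the mean and SD (n = 3), for 4 genes with a difference above 0 (top) and 4 below 0 (bottom). In the top row the male In libraries lie below the male S ones while female In tends to lie above female S, and in the bottom row male In lies above male S; the adjusted p of the difference is 0.940 for each.

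Immediate early genes, which are switched on within minutes of neuronal activity, were examined as a group. Of 22 tested, 17 lay above 0, with a median log2 difference of 0.31, 3 at an unadjusted p under 0.05 and 0 adjusted. The median female effect was 0.30 and the median male effect 0.03. Without male In 1 the median difference was 0.44, with 20 of 22 above 0. It was 0.17 without female In 1, with 15 of 22 above 0, 0.18 without female S 3 and 0.19 without male In 2. Egr1, a zinc finger transcription factor much used as a marker of activity, was at 49.7, 52.1 and 40.5 CPM in female In, against 31.0, 37.3 and 24.9 CPM in female S. In males it was at 12.9, 27.0 and 24.5 CPM in In, against 29.3, 31.8 and 34.9 CPM in S. Neither pair of groups overlaps, and the log2 difference was 1.18 ± 0.32 (SE, 95% interval 0.50 to 1.86; adjusted p = 0.940 by edgeR), or 0.92 without male In 1. Dusp1, a phosphatase that ends MAP kinase signalling, was at 59.1, 34.3 and 43.1 CPM in female In and 31.0, 34.4 and 19.6 CPM in female S. Male In had 65.6, 42.2 and 43.9 CPM and male S 61.3, 53.4 and 61.2 CPM, with overlap in both sexes. Egr3, a relative of Egr1, had a log2 difference of 0.79 ± 0.31 (SE). Fos, the best known member, was at 20.4, 9.43 and 17.5 CPM in female In, 17.6, 13.1 and 8.34 CPM in female S, 48.7, 22.7 and 26.5 CPM in male In and 44.1, 40.3 and 20.7 CPM in male S, with overlap in both sexes. Its log2 difference was 0.38 ± 0.55 (SE), or 0.79 without male In 1.

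Many immediate early genes are induced through the cAMP response element TGACGTCA, bound by CREB. RefSeq's promoter windows (build GRCr8, not the build of the counts) were found for 17 of the 22 genes. The first 250 bases before the annotated start were searched on both strands. Of the 17 genes, 4 held this palindrome, against 1.78% of all genes with a window. The stretches around it are shown because they are what these members share in sequence. They are given 5′ to 3′ along the gene, with the element in capitals.
Dusp1 (chr10:17184703-17184762, plus strand): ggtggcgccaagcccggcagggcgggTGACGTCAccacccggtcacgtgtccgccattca
Btg2 (chr13:48087858-48087917, minus strand): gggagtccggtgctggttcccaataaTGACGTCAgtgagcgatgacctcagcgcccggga
Ier2 (chr19:40399281-40399340, plus strand): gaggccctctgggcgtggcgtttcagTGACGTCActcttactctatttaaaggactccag
Jund (chr16:18769959-18770018, minus strand): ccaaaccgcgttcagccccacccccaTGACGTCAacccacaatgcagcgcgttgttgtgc
The element starts 124 bases before the gene start in Dusp1, 201 in Btg2, 66 in Ier2 and 221 in Jund. The log2 differences of these 4 genes were 0.90 ± 0.33 for Dusp1, 0.32 ± 0.32 for Btg2, 0.31 ± 0.35 for Ier2 and 0.23 ± 0.26 for Jund (SE). All lay above 0, as did 17 of the 22 in the list, and only that of Dusp1 was at an unadjusted p under 0.05. Without male In 1 those of Btg2, Ier2 and Jund were 0.54, 0.54 and 0.44. The CArG box, the other motif searched, was held by 2 of the 17 genes, against 1.62% of all genes with a window. A match of letters is a description and shows no binding.

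Several lists of neuronal genes had a median difference above 0, with a male median effect below 0. Glutamate receptor and postsynaptic scaffold genes had a median difference of 0.34, with 26 of 33 above 0, 3 at an unadjusted p under 0.05 and 0 adjusted. The median effect was -0.04 in females and -0.34 in males, and the median difference was 0.31 without male In 1 and 0.16 without female In 2. In males 11 of the 33 had each In library below each S library, against 5.17% of all genes. Shank2, a postsynaptic scaffold, was at 5.76, 10.1 and 6.67 CPM in female In and 4.81, 8.61 and 5.05 CPM in female S, against 1.52, 4.69 and 4.54 CPM in male In and 5.03, 17.9 and 9.24 CPM in male S. Grin2a, an NMDA receptor subunit, was at 3.56, 9.19 and 4.17 CPM in female In, 4.26, 5.95 and 5.39 CPM in female S, 0.475, 2.31 and 1.73 CPM in male In and 2.99, 4.42 and 6.76 CPM in male S. The female groups of both genes overlap and the male ones do not. Homer1, which links glutamate receptors to calcium stores and has an activity-induced short form, had a log2 difference of 0.95 ± 0.43 (SE).

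Voltage-gated channel genes had a median difference of 0.33 (31 of 38 above 0, none at an unadjusted p under 0.05), which was 0.27 without male In 1, 0.11 without female In 2, 0.22 without female S 3 and 0.21 without male S 1. Excitatory neuron markers had 0.34 (10 of 16 above 0, 3 at an unadjusted p under 0.05), or 0.18 without male In 1, 0.19 without female In 2 and 0.63 without male In 3. Among them Foxp2, a marker of layer 6, had a log2 difference of 0.85 ± 0.38 and Rasgrf2, a marker of upper layers, 1.12 ± 0.52 (SE). The list did not share a direction, since 6 of the 16 lay below 0. Among these were Fezf2 at -0.52 ± 0.28, Emx1 at -0.55 ± 0.46 and Cux2 at -0.16 ± 0.33 (SE). Pan-neuronal genes had a median of 0.14 (9 of 14 above 0), or 0.11 without male In 1, and with 1 library left out it ran from -0.051 (without female In 2) to 0.31 (without female In 1), 8 libraries moving it over 1.5 times. Inhibitory neuron markers had a median of -0.22 (10 of 16 below 0), Sst being the one member at an unadjusted p under 0.05. That median was -0.093, -0.11 and -0.34 without female In 1, 2 and 3, -0.34 and -0.12 without female S 1 and 2, and -0.14 without male In 1. Perineuronal net genes had a median of 0.39 (8 of 13 above 0), which was 0.10 without male In 1, 0.24 without female S 3 and 0.17 without male S 1.

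Astrocyte, microglial, pericyte and blood genes had median differences below 0. Astrocyte markers had a median difference of -0.60 (15 of 17 below 0, 2 at an unadjusted p under 0.05, 0 adjusted), with median effects of -0.24 in females and 0.38 in males, and -0.57 without male In 1. The median was less steady to other libraries: -0.37 and -0.95 without female In 2 and 3, -0.91 and -0.20 without female S 1 and 3, and -0.95 without male S 4. Without female In 3 the female median was -0.60. S100b, a calcium-binding protein of astrocytes, had a log2 difference of -0.80 ± 0.37 and Ntsr2, an astrocytic neurotensin receptor, -1.13 ± 0.50 (SE). Gfap, the intermediate filament that marks reactive astrocytes, did not follow them: it was at 419, 201 and 257 CPM in female In, 228, 341 and 298 CPM in female S, 825, 677 and 593 CPM in male In and 691, 667 and 749 CPM in male S. Its groups overlap in both sexes and its log2 difference was 0.02 ± 0.33 (SE, 95% interval -0.68 to 0.73), a sign that turned in some alternatives.

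Microglia and macrophage markers had a median of -0.49 (19 of 20 below 0, 2 at an unadjusted p under 0.05), or -0.32 without male In 1 with 15 of 20 below 0, and -0.77 without male S 1. Trem2, a lipid-sensing receptor of microglia, was at 69.1, 42.4 and 35.5 CPM in female In, 53.2, 47.1 and 64.5 CPM in female S, 118, 67.3 and 66.5 CPM in male In and 60.5, 51.8 and 53.0 CPM in male S. The male groups are apart, and male In 1 is the highest of all 12 libraries, and the log2 difference of -0.77 ± 0.36 (SE) was -0.45 without it. Ctss, the lysosomal protease cathepsin S, had a log2 difference of -0.73 ± 0.33 and Aif1, which encodes Iba1, -0.86 ± 0.45 (SE), the second being -0.30 without male In 1. Pericyte and smooth muscle markers had a median of -0.40 with 14 of 14 below 0, but -0.17 with 9 of 14 without male In 1, -0.70 and -0.25 without female In 1 and 3, -0.19 and -0.60 without female S 1 and 2, and -0.61 without male S 2. Fibroblast and meningeal markers had -0.41, and 0.00 without that library and 0.021 without female S 1. Endothelial markers were near 0, with a median of -0.07, or -0.17 without male In 1, in a range from -0.21 (without female In 1) to 0.059 (without male In 2). Blood genes had the lowest median of all lists, -2.65 (7 of 8 below 0), or -1.25 without male In 1, and their sum was 7.88 to 80.9 CPM in female In, 11.9 to 171 in female S, 37.9 to 620 in male In and 38.4 to 91.5 in male S. Oligodendrocyte markers had a median of 0.44 with 16 of 17 above 0, and 0.01 with 9 of 17 without male In 1, 0.71 without female S 1 and 0.85 without male In 3.

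**Figure D4:**
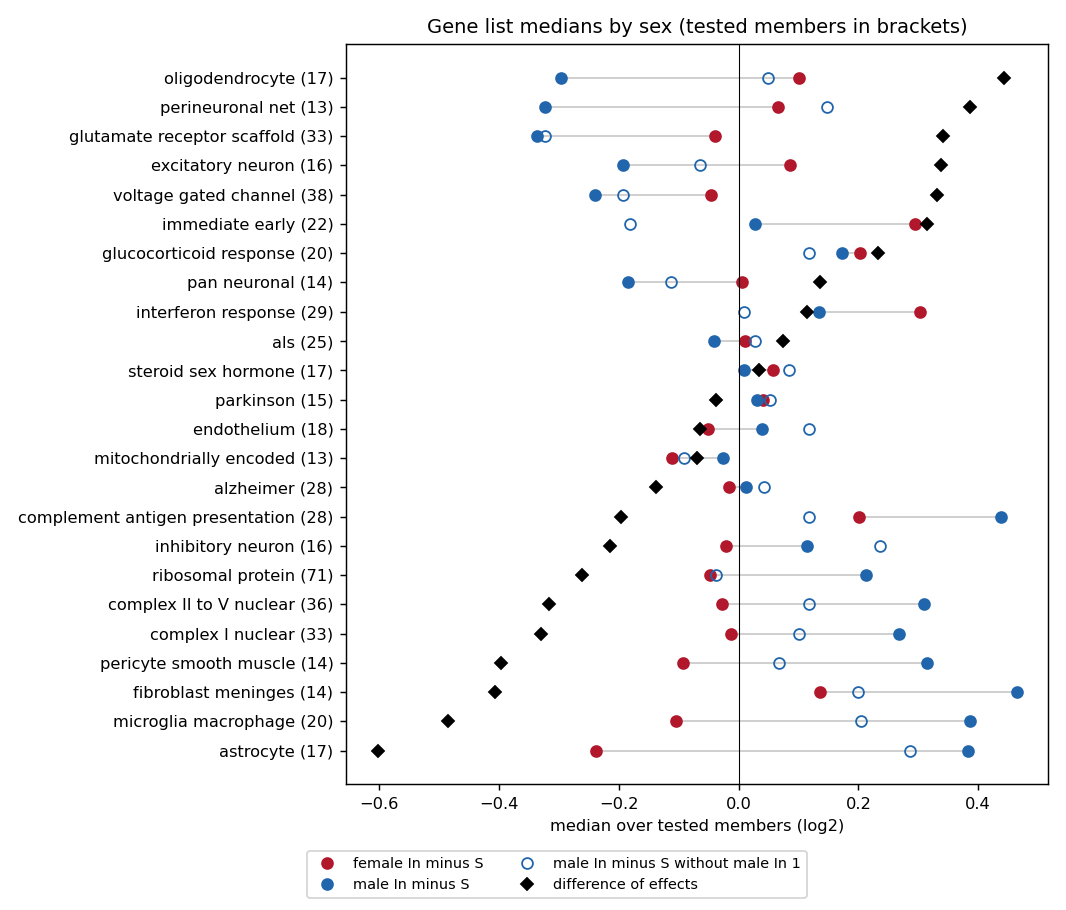
Median over the tested members of each list of the log2 In minus S effect in females (red), in males (blue) and in males without male In 1 (open blue), and of the difference of effects (black); numbers of tested members are in brackets. Oligodendrocyte, synaptic and channel genes lie near the top and astrocyte (-0.60) and microglial (-0.49) markers at the bottom. In these lists male medians lie further from 0 than female ones. This does not hold for every list: immediate early genes had medians of 0.30 in females and 0.03 in males. For oligodendrocyte and fibroblast markers the male median moves towards the female one once male In 1 is left out. Choroid plexus (5.34), motile cilia (1.66) and blood (-2.65) medians lie outside the plotted lists.

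With all 12 libraries, nuclear genes of the respiratory chain lay below 0 almost without exception. Complex I subunits had a median difference of -0.33 (31 of 33 below 0, 2 at an unadjusted p under 0.05, 0 adjusted), and subunits of complexes II to V had -0.32 (35 of 36, 2 and 0). Female medians were close to 0, at -0.01 and -0.03, and male medians were 0.27 and 0.31. In males 12 of the 36 genes of complexes II to V had each In library above each S library, against 6.30% of all genes. Without male In 1 the medians were -0.16 (24 of 33 below 0) and -0.18 (31 of 36). Cox5b, a subunit of cytochrome c oxidase, was at 116, 85.5 and 75.9 CPM in female In, 93.6, 103 and 117 CPM in female S, 206, 116 and 125 CPM in male In and 110, 80.3 and 93.4 CPM in male S. Ndufb2, an accessory subunit of complex I, was at 41.3, 30.3 and 37.2 CPM in female In, 31.2, 34.4 and 47.4 CPM in female S, 125, 73.2 and 72.4 CPM in male In and 67.7, 38.4 and 48.4 CPM in male S. For both, male In lies above male S with In 1 highest, and the female groups overlap. Their log2 differences were -0.84 ± 0.31 and -0.86 ± 0.35 (SE), or -0.54 and -0.55 without male In 1. Cytosolic ribosomal protein genes had a median of -0.26 (64 of 71 below 0), but -0.02 (39 of 71) without male In 1, -0.50 (70 of 71), -0.17 and -0.14 without female In 1, 2 and 3, and -0.17 without female S 3. Mitochondrially encoded genes had -0.07 (9 of 13 below 0), with no steady sign: the median was 0.02 without male In 1 and ran from -0.35 (without female In 1) to 0.13 (without male S 1), 10 libraries moving it over 1.5 times.

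The series title names neurodegeneration risk, so genes of neurodegenerative disease were read as well. Their lists were near 0, with medians of -0.14 for 28 Alzheimer genes, 0.07 for 25 amyotrophic lateral sclerosis genes and -0.04 for 15 Parkinson genes, and no member passed. Without male In 1 they were -0.06, -0.03 and 0.02, and with any 1 library left out they ran from -0.21 to -0.040, -0.030 to 0.13 and -0.084 to 0.068. Apoe, the lipid carrier made by astrocytes and microglia, was at 2372, 1546 and 2550 CPM in female In, 1586, 2103 and 3325 CPM in female S, 5935, 2946 and 3032 CPM in male In and 2018, 1867 and 2641 CPM in male S. Its log2 difference was -0.99 ± 0.44 (SE), with male In 1 highest of all libraries, and -0.58 without it. Mapt, which encodes tau, had 0.59 ± 0.30, App, the amyloid precursor protein, 0.11 ± 0.31, Tardbp, the RNA-binding protein TDP-43, -0.14 ± 0.20 and Sod1, a superoxide dismutase mutated in familial motor neuron disease, -0.40 ± 0.27 (SE). Without male In 1, App was at -0.15 and Sod1 at -0.17. The 95% interval for Tardbp was -0.58 to 0.29 and that for App -0.55 to 0.78. Steroid and sex hormone genes had a median of 0.03 (9 of 17 above 0), in a range from -0.020 to 0.11 with 1 library left out. Esr1, an oestrogen receptor, stayed under 4 CPM in every library, with a log2 difference of -0.65 ± 1.24 (SE), too imprecise to give a direction.

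The same interaction can be read as the gap between females and males within In and within S. In the In libraries 1913 genes differed between the sexes (12.7%), 920 of them higher (6.10%) and 993 lower (6.59%) in females. In the S libraries 447 did (2.97%), 256 higher (1.70%) and 191 lower (1.27%). These gaps also carry whatever else differed between the female and male libraries, so the counts describe the cohorts as much as the sexes. Within In the count was 578 without female In 2 and 821 without female In 3. Within S it was 66, 116 and 162 without female S 1, 2 and 3, 159 and 68 without male S 2 and 4, and 1270 without male In 1, which is not an S library but enters the shared estimate of spread. For choroid plexus markers the median female minus male gap was 6.12 in In and -0.19 in S. Of the 13 tested, 8 passed the filter on low counts only through female In, so their gap in In was set by the filter. The summed level of all 17, which no filter touched, was 195 to 1020 CPM in female In and 89.0 to 103 in male In. In S these ranges were 91.7 to 118 and 76.4 to 104. For astrocyte markers the median gap was -0.60 in In and -0.04 in S, and for glutamate receptor and scaffold genes 0.35 and -0.01. In the astrocyte and glutamate lists the sexes were nearly level in S and apart in In. For ribosomal protein genes the gap was -1.12 in In and -0.90 in S, and for mitochondrially encoded genes -1.72 and -1.73, so there the sexes were apart in both.

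**Figure D5:**
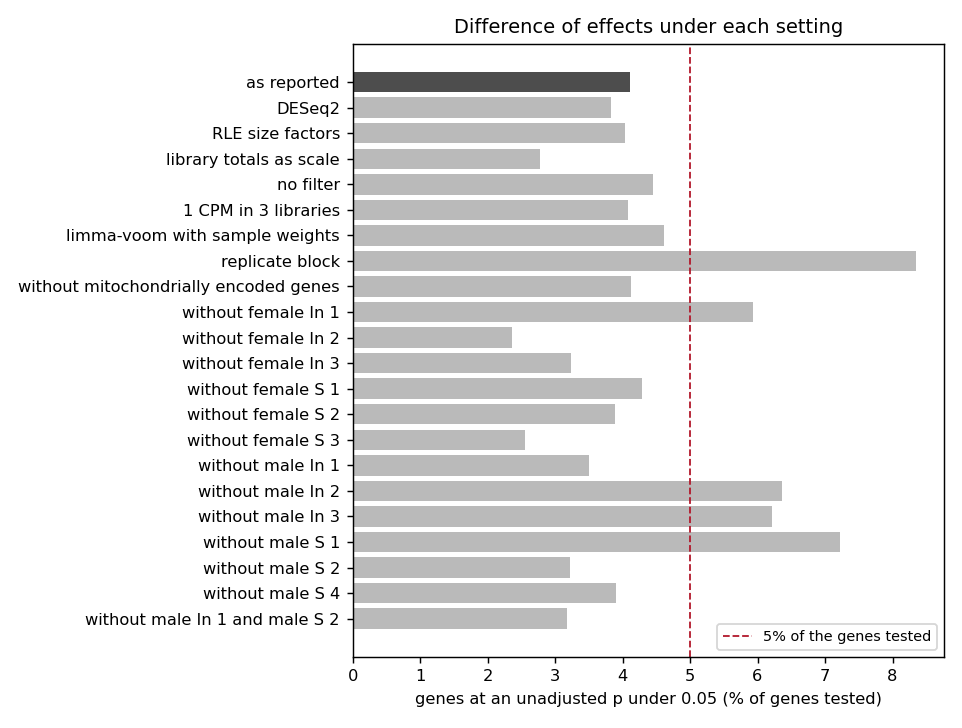
Share of tested genes with an unadjusted p under 0.05 for the difference of effects, as reported (dark bar, 4.11%) and under each alternative (grey); the dashed line is at 5%. The share ran from 2.36% without female In 2 to 8.35% with a replicate block.

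Leaving out 1 library changed how many genes reached an unadjusted p under 0.05, from 363 without female In 2 and 396 without female S 3 to 966 without male In 3, 987 without male In 2 and 1121 without male S 1, but at no point gave a gene with an adjusted p under 0.05 in edgeR. DESeq2 called 3 genes, all above 0: Slco1a5, Fam183b and Vat1l.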

How the data were processed

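Per the labels' protocols, RNA came from a PureLink RNA Mini Kit, and Novogene built the polyA libraries. HISAT2, edgeR and the build rn6 are named, without versions, per the submitters' processing notes. The authors deposited raw counts of uniquely aligned reads per gene symbol, with summary lines that were dropped here. Of 31038 genes, 9706 had no read, 27 names had been turned into dates, and 15074 passed edgeR's filterByExpr.

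The 12 day 30 libraries were fitted together in R 4.3.3 with edgeR 4.0.16 (TMM, robust quasi-likelihood F test, common biological coefficient of variation 0.259), with 1 mean per group, Benjamini-Hochberg adjustment over all tested genes and a threshold of 0.05. The test was checked on simulated data. CPM use TMM factors, and 3 counts correspond to 0.114 to 0.288 CPM. Where a group held 3 counts or fewer (107 genes), counts are given and no fold. Every pair of libraries of a group differed beyond counting noise.

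The genes and the 47 lists were chosen with earlier results of these data known, so their counts and medians are descriptions. Named genes are the 12 above 0 and 12 below 0 of smallest p, the top 3 by p of each list described, members of the 3 highest and 3 lowest lists, genes that pass in females and fixed examples, some of which are not reported here. Btg2, Ier2 and Jund were added for their promoter sequence, and Fezf2, Emx1 and Cux2 as excitatory neuron markers below 0. Alternatives used DESeq2 1.42.0, limma 3.58.1, other scalings and filters, and left-out libraries. Plotting used Python 3.11.15 and matplotlib 3.10.9.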

Additional observations from a re-analysis of the deposited data

How the results depend on the processing

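The count of genes whose effect differed at an adjusted p under 0.05 was 0 in every edgeR and limma-voom alternative and 3 with DESeq2 (adjusted p of 0.0121 for Slco1a5, 0.0227 for Fam183b and 0.0300 for Vat1l). At an unadjusted p it was 950 genes without a filter and 363 to 1121 with 1 library left out. Genes that passed in females numbered 37 with DESeq2, 10 without a filter, 0 with limma-voom, 2 without male In 1 and male S 2, and 0 to 24 with 1 library left out. In males these were 2, 0, 1, 1 and 0 to 1. Female against male gave 8969 genes within In and 8998 within S on library totals, and 1009 (DESeq2), 945 (limma-voom) and 981 (without male In 1 and male S 2) within S. With 1 library left out it was 578 to 1908 within In and 66 to 1270 within S.

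Whether the replicate numbers pair the libraries is not stated. Correlations of same-numbered deviations ran from 0.00395 to 0.129, and those of differently numbered ones from -0.158 to 0.106. With 3 libraries a group, these values cannot decide whether the numbers pair them. Male In 3 and male S 4 have no male partner of the same number, so in males only numbers 1 and 2 can pair. A fit with the number as a replicate block gave 0 adjusted calls of the difference (smallest adjusted p = 0.0512 by edgeR), 1259 unadjusted and 10 in females, with medians of 1.28 for oligodendrocyte, 0.69 for excitatory neuron, 0.031 for Alzheimer and -0.17 for Parkinson genes.

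Among the named genes, 14 values turned sign and 3 became calls, those of DESeq2. Gfap was -0.0048 with limma-voom and -0.18 with the block, App -0.10 with limma-voom and -0.11 without male In 1 and male S 2, and Mbp -0.12 and -0.34. With 1 library left out they ran from -0.32 to 0.23, -0.15 to 0.31 and -0.29 to 0.76. Without male In 1 and male S 2 the medians were 2.13 for cilia, 0.085 for perineuronal net, -1.19 for blood, -0.077 for fibroblast, -0.098 for complex I, -0.11 for complexes II to V and 0.14 for complement genes. With limma-voom they were -0.027 for perineuronal net and -0.064 for fibroblast genes, and on library totals 0.063 for Parkinson genes. With 1 library left out, medians ran from 3.58 to 6.14 for choroid plexus, 1.20 to 1.91 for cilia, 0.10 to 0.53 for perineuronal net, 0.18 to 0.63 for excitatory neuron, -0.60 to 0.021 for fibroblast, -0.21 to 0.059 for endothelial and -0.084 to 0.068 for Parkinson genes. The cause was not tested for any of these.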

Other observations

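Immune signalling genes did not share a direction. Interferon response genes had a median log2 difference of 0.11, with 19 of 29 tested members above 0, in a range from -0.030 (without male S 1) to 0.23 (without female S 1), and their median effects were 0.30 in females and 0.13 in males. Rsad2, the antiviral enzyme viperin, was at 1.35, 1.78 and 1.52 CPM in female In, against 0.681, 0.582 and 0.727 CPM in female S. In males it was at 0, 0.505 and 0.454 CPM in In, against 0.597, 0.961 and 0.381 CPM in S. The female groups are apart and the male ones overlap, whereas Ifitm2 of the same list lay on the other side of 0. Complement and antigen presentation genes had a median of -0.20 (19 of 28 below 0), or 0.07 without male In 1, -0.33 without male In 3 and -0.47 without male S 1, and a positive median effect in both sexes, 0.20 in females and 0.44 in males. C2, a complement protease, had a log2 difference of -0.83 ± 0.29 (SE).

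Glucocorticoid response genes had a median of 0.23 (13 of 20 above 0), with median effects of 0.20 in females and 0.17 in males, and 0.10 without male In 1, 0.095 without female In 1 and 0.11 without male S 2. Cdkn1a, which encodes the cell cycle inhibitor p21, was at 20.9, 9.98 and 12.4 CPM in female In, against 7.02, 7.16 and 6.97 CPM in female S. In males it was at 6.65, 11.9 and 7.00 CPM in In, against 5.85, 6.25 and 7.24 CPM in S, so that only the female groups were apart, and the log2 difference was 0.62 ± 0.40 (SE). Sparc, a matrix glycoprotein of vessels and astrocytes, was at 803, 617 and 727 CPM in female In and 701, 736 and 1017 CPM in female S. Male In had 1454, 931 and 867 CPM and male S 676, 581 and 634 CPM, a log2 difference of -0.97 ± 0.30 (SE).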
